A study of Mus musculus with 6 samples.

Results

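Lysozymes and other genes known from macrophages were followed through cells sorted from young and aged mouse muscle. The 10 genes were Lyz1 and Lyz2, the complement chains C1qa, C1qb and C1qc, and Retnla, Csf1r, Cd68, Mrc1 and Lgals3, out of 19321 genes named on the array. Each was taken by its symbol, with the brightest probe by the mean over the 6 arrays where a gene had several, and each of the 10 had 1 probe. Lyz1 and Lyz2 were chosen by their aged over young intensity, which was higher in aged PDGFRa+ and aged satellite cells on these same arrays. Their aged over young values are therefore a description, with no test.

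Cells were sorted from the hind limb muscles of C57BL/6 mice, young at 8 to 10 weeks and aged at 24 to 28 months, to find genes specific to a population and genes altered by age. The 3 populations were PDGFRa+ mesenchymal progenitors (PDGFRa below), satellite cells, which are the muscle stem cells, and a mixture of CD31+ or CD45+ cells (CD31_CD45 below), which holds endothelial and hematopoietic cells together. Cells of repeated sorts were pooled, and each population at each age was hybridised to 1 one-colour array, so there is no replicate within a population and age. No labelled group is a purified macrophage sort, and macrophages can be only a fraction of CD31_CD45. In such bulk samples, fewer cells of a type and less RNA per cell cannot be told apart.

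Macrophages of resting muscle lie between the fibres and clear debris, and after injury they take up dead fibres and signal to satellite cells and mesenchymal progenitors. Lysozyme splits bacterial cell walls, and mice carry tandem copies, Lyz1 of Paneth cells and Lyz2 of myeloid cells. The C1qa, C1qb and C1qc chains together form C1q, which starts the classical complement pathway and in many tissues is made largely by macrophages. Csf1r is the receptor for the macrophage growth factors CSF1 and IL-34.

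Values in the deposited table are linear intensities above each array's blank spots, scaled so that the median of every array is 25. Between 20757 and 21671 of 23473 probes per array (88.4% to 92.3%) lay above background, and all 10 genes did so on all 6 arrays. The number of arrays limits the precision. The sort markers followed the labels. Pdgfra, the sorting receptor of the progenitors, had 5700.4 and 4149.0 in young and aged PDGFRa against 7.6 to 60.6 elsewhere. The satellite cell factor Pax7 had 1055.0 and 1361.6 in satellite cells against at most 10.6. The endothelial adhesion molecule Pecam1 (CD31) had 2464.8 and 2450.7 in CD31_CD45 against at most 50.1. Ptprc (CD45), the leukocyte phosphatase, had 251.7 and 414.6 in CD31_CD45 against at most 4.7. The scanner headers divide the arrays into 2 sets by the slope between gain settings, 0.465 to 0.466 in one and 0.477 to 0.478 in the other. The first set holds young PDGFRa, aged PDGFRa and young satellite. The second holds young CD31_CD45, aged CD31_CD45 and aged satellite. The comparison of CD31_CD45 with PDGFRa therefore lies wholly across the sets, and for it set and population cannot be told apart in single pairs of arrays.

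Lyz2, the lysozyme of macrophages and neutrophils, had an intensity of 15831.2 in young and 18621.3 in aged CD31_CD45. It had 110.1 in young and 1904.6 in aged PDGFRa, and 147.3 in young and 965.3 in aged satellite cells. Lyz1, the Paneth cell copy, gave 11447.7 and 12321.0 in young and aged CD31_CD45. In PDGFRa it had 89.6 in young and 1229.8 in aged cells, and in satellite cells 88.3 and 639.0. The order of the 6 arrays was thus the same for both lysozymes from the aged satellite array upwards, and only the pair of young low arrays changed places. The CD31_CD45 arrays did not overlap with the others, and the aged arrays of the remaining populations lay between them and their young counterparts.

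**Figure D1:**
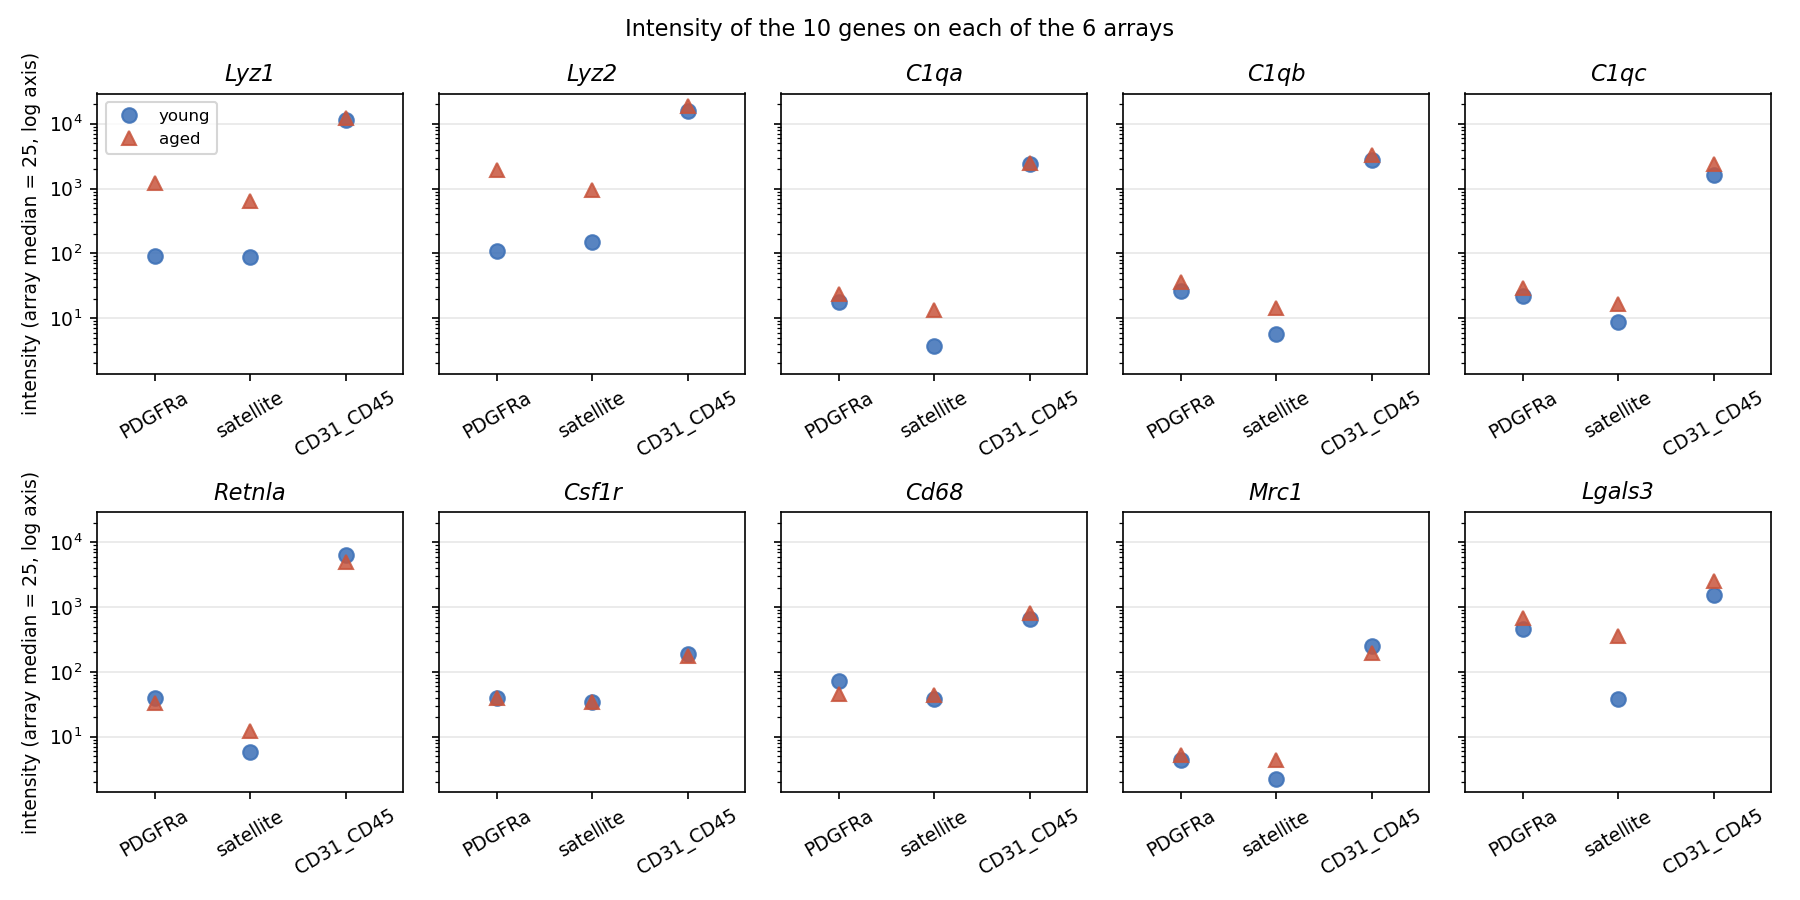
Intensity of the 10 genes (deposited values, log10 axis, median of each array 25) on each of the 6 arrays, 1 array per population and age, with no error bar. For every gene the CD31_CD45 arrays are the highest; for Lyz1 and Lyz2 the aged PDGFRa and aged satellite arrays lie well above their young counterparts.

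After log2 transformation and quantile normalisation, the profiles of Lyz1 and Lyz2, each centred on its own mean, differed by a root mean square of 0.14 over the 6 arrays. The genes lie side by side on chromosome 10 with 0 annotated genes between them. Probe sequences were not used here, and signal of Lyz2 transcripts on the Lyz1 probe cannot be told apart from Lyz1 transcripts. The sequences upstream of both start sites are printed because the genes shared one profile, and those of C1qb and Retnla because they kept the CD31_CD45 pattern without the lysozymes' age difference. They are the 250 bases before each start site, 5′ to 3′ on the gene's strand, from RefSeq (GRCm38.p6), and capitals mark the letters ACTTCCT, the reverse complement of AGGAAGT, a core read by PU.1 and other ETS factors.
Lyz1, chr10:117292869-117293118, minus strand: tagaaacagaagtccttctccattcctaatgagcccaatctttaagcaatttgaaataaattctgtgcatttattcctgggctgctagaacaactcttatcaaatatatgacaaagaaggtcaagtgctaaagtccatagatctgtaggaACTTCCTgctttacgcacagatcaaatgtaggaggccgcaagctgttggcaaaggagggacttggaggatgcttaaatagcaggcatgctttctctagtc
Lyz2, chr10:117282273-117282522, minus strand: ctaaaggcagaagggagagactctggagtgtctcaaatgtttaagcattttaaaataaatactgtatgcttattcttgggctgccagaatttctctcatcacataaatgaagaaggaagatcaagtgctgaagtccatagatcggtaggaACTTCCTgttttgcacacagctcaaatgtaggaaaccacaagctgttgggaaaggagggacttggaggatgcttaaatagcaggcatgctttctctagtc
C1qb, chr4:136886201-136886450, minus strand: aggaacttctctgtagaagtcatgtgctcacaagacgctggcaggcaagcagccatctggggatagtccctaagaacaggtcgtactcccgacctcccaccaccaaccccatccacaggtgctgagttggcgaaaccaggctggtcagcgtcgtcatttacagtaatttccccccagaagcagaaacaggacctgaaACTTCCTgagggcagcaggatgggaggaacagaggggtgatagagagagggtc
Retnla, chr16:48842359-48842608, plus strand: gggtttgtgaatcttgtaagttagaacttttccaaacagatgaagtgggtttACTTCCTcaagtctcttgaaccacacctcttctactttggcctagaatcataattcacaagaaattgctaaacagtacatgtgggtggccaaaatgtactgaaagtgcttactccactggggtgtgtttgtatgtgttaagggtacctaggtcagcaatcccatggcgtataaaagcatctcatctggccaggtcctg

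Compared base by base without gaps, the Lyz1 and Lyz2 sequences were identical at 92 of the 100 bases nearest the start site and at 60 of the 150 bases farther upstream. Both carried the motif 100 bases before the start. The motif AGGAAGT was searched on both strands in the 300 bases from 250 before to 50 after each start site, and it was chosen after the promoters had been seen. It was present for 6 of the 8 genes with a promoter in the table: Lyz1, Lyz2, C1qb at 53 bases, C1qc at 195, Retnla at 198 and Mrc1 at 211 bases before the start. It was not in these windows for Cd68 and Lgals3. Of all 32851 promoters of that length, 3072 (9.35%) held it. A match is a string of letters and no measured binding.

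Both lysozymes rose in CD31_CD45 against PDGFRa. The difference for Lyz2 was 5.32 ± 0.95 on the log2 scale (SE, 95% interval 2.53 to 8.11, limma, Benjamini-Hochberg adjusted p = 0.0315), with the 2 arrays of each population entering the fit. Lyz1 differed by 5.26 ± 0.90 (SE, limma adjusted p = 0.0288). Against satellite cells the limma differences were 5.55 ± 0.95 for Lyz2 (SE, adjusted p = 0.0245) and 5.64 ± 0.90 for Lyz1 (SE, adjusted p = 0.0211). The standard errors exceed those of the C1q chains, whose largest was 0.14, because in this additive model an age difference that is not shared by the populations enters the error. Both calls against PDGFRa were lost without any single array of PDGFRa or satellite cells and with the scanner set as a block. That of Lyz2 was also lost without young CD31_CD45 and with local background. Against satellite cells, both were lost without either satellite array and with the scanner set as a block, and Lyz2 also with local background. Over the arrays left out in turn and the other settings, the adjusted p of Lyz2 against PDGFRa ran from 0.00704 to 0.339, and its difference from 3.88 to 6.76. Within the second scanner set, aged CD31_CD45 exceeded aged satellite cells by 4.42 for Lyz2 and 4.44 for Lyz1.

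The C1q chains were bright in CD31_CD45, around the array median of 25 in PDGFRa, and below it in satellite cells. C1qa had 2381.0 and 2440.3 in young and aged CD31_CD45, 17.7 and 23.8 in PDGFRa, and 3.7 and 13.3 in satellite cells. C1qb, which pairs with C1qa in the assembled molecule, had 2785.9 and 3255.3 in CD31_CD45, 26.6 and 35.7 in PDGFRa, and 5.8 and 14.6 in satellite cells. C1qc, the remaining chain, had 1605.0 and 2382.0 in CD31_CD45, 21.8 and 29.0 in PDGFRa, and 8.6 and 16.6 in satellite cells. For each chain the order from high to low was CD31_CD45, PDGFRa and satellite cells, with no overlap of populations. The 3 genes lie next to each other on chromosome 4, with 0 annotated genes between neighbours.

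All 3 chains rose in CD31_CD45. Against PDGFRa, C1qb differed by 5.67 ± 0.04 on the log2 scale (SE, limma adjusted p = 0.00086), C1qa by 5.58 ± 0.07 and C1qc by 5.12 ± 0.14. Against satellite cells the differences were 6.25, 5.97 and 5.49 in the same order, all called. C1qb had the smallest standard error of the 10 genes. The offset of 50 added before the logarithm compresses these values: the mean linear intensity of C1qb in CD31_CD45 was 97.0 times that in PDGFRa, whereas the normalised fold was 50.9.

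Retnla encodes RELM-alpha, a secreted protein of alternatively activated macrophages that fat and airway cells also make. Its intensity was 6326.7 in young and 5002.5 in aged CD31_CD45. It was 39.5 and 33.2 in PDGFRa, and 5.8 and 12.2 in satellite cells. The populations did not overlap, and the difference of CD31_CD45 from satellite cells, 7.34 ± 0.15 (SE, limma adjusted p = 0.000885), was the largest among the 10 genes. Against PDGFRa it was 6.61 ± 0.15 (SE, limma adjusted p = 0.00103).

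Mrc1, the mannose receptor CD206 of tissue macrophages and some endothelia, had 246.5 and 193.0 in young and aged CD31_CD45. It had 4.3 and 5.2 in PDGFRa and 2.2 and 4.3 in satellite cells, near the lowest values that count as above background. Its differences were 2.66 ± 0.11 and 2.73 ± 0.11 (SE, limma adjusted p = 0.00225 and 0.00194) against PDGFRa and satellite cells. Cd68, a lysosomal membrane protein of phagocytes, had 655.9 and 800.0 in CD31_CD45, 73.3 and 44.9 in PDGFRa, and 37.9 and 44.7 in satellite cells. It differed by 3.05 ± 0.19 and 3.34 ± 0.19 (SE, limma adjusted p = 0.00425 and 0.00321), and its aged PDGFRa value lay next to both satellite values.

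Csf1r had the smallest difference. It gave 189.6 and 175.5 in CD31_CD45, 39.3 and 39.1 in PDGFRa, and 34.0 and 34.7 in satellite cells. The limma difference was 1.53 ± 0.05 from PDGFRa and 1.64 ± 0.05 from satellite cells (SE, adjusted p = 0.00173 and 0.00143). The 2 arrays of each population differed little from each other, and each low population stayed above the array median of 25. Csf1r and Mrc1 were no longer called against either population when each spot's own local background was subtracted.

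Lgals3 encodes galectin-3, a sugar-binding lectin of macrophages and of many activated stromal cells. It had 1551.9 and 2510.6 in CD31_CD45, 453.1 and 671.1 in PDGFRa, and 37.7 and 355.7 in satellite cells. All 6 values lay above the array median of 25, and the young satellite array was far below the aged one. The difference from PDGFRa was 1.94 ± 0.54 (SE, 95% interval 0.35 to 3.53, limma adjusted p = 0.0828) and did not pass. The difference from satellite cells was 3.66 ± 0.54 (SE, limma adjusted p = 0.0181). It did not pass without young or without aged CD31_CD45. The difference from PDGFRa passed without either satellite array and with median scaling.

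Counted together, 9 of the 10 genes were called higher in CD31_CD45 than in PDGFRa, Lgals3 being the exception, against 5.41% of the 18371 genes tested. All 10 were called higher than in satellite cells, against 6.56% of all genes. Their median differences were 5.19 and 5.52, beside all-gene medians of -0.01 and -0.02. The genes were gathered because they mark macrophages, so their count is not independent evidence of a direction. With single arrays left out, 7 to 9 were called against PDGFRa and 8 to 10 against satellite cells. A fit that took the scanner set as a block called 5 against PDGFRa (C1qa, C1qb, C1qc, Retnla and Csf1r) and 8 against satellite cells, all but Lyz1 and Lyz2. Only satellite cells have arrays in both sets. The set term of that fit therefore cannot be told apart from an age difference particular to satellite cells. Local background left 6 and 7 called, and Lyz2, Csf1r and Mrc1 were lost in both. With median scaling all 10, Lgals3 included, were called against PDGFRa.

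**Figure D2:**
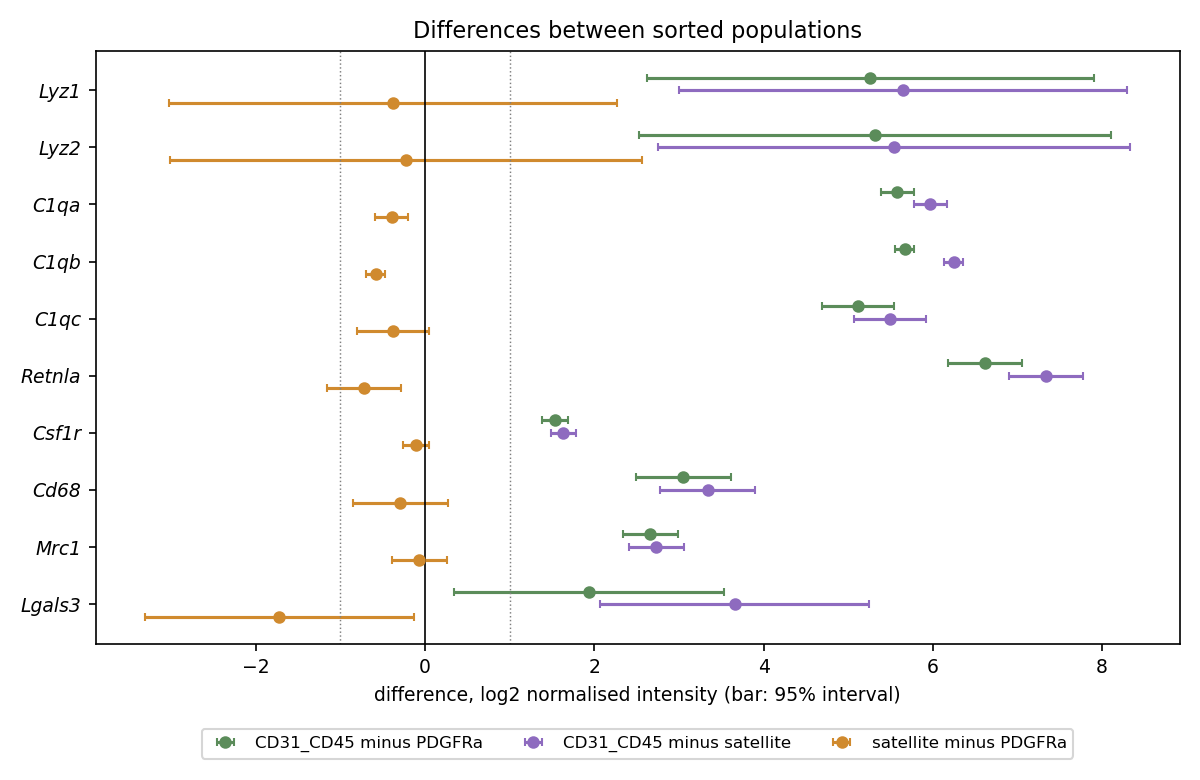
Differences of CD31_CD45 from PDGFRa and from satellite cells, and of satellite cells from PDGFRa, for the 10 genes (normalised log2 intensity, limma estimate with 95% interval, 2 arrays per population). For CD31_CD45, the C1q chains and Retnla have narrow intervals, the lowest reaching down to 4.70 (C1qc against PDGFRa). The intervals of Lyz1, Lyz2 and Lgals3 are wide, and that of Lgals3 in CD31_CD45 against PDGFRa reaches down to 0.35.

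Satellite cells and PDGFRa were closer to each other. All 10 estimates were lower in satellite cells, those of Lyz1, Lyz2 and Csf1r turning higher with local background, and 0 of 10 were called at 2-fold, against 4.09% of all genes called lower. At an adjusted p under 0.05 without a fold limit, C1qb fell by 0.58 ± 0.04 (SE, limma adjusted p = 0.00821), C1qa fell by 0.39 ± 0.07 (SE, adjusted p = 0.0329) and Retnla fell by 0.72 ± 0.15 (SE, adjusted p = 0.0479), against 11.7% of all genes lower by this rule. Lgals3 differed by -1.72 ± 0.54 (SE, 95% interval -3.31 to -0.13, limma adjusted p = 0.112). For Lyz2 the interval ran from -3.02 to 2.56, so a difference of several-fold in either direction lies within the error.

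Between ages, the lysozymes stood far out in PDGFRa and satellite cells. In PDGFRa the aged array exceeded the young one by 3.79 for Lyz2 (17.3-fold in intensity) and by 3.37 for Lyz1 (13.7-fold). These were ranks 1 and 2 of 17875 genes above background on the brighter array, where the central 95% of genes lay between -0.41 and 0.43. In satellite cells the differences were 2.55 for Lyz2 (6.55-fold) and 2.54 for Lyz1 (7.24-fold), ranks 3 and 4 of 18023 genes with a central range of -0.49 to 0.66. In CD31_CD45 they were 0.30 and 0.14, inside the central range of -0.40 to 0.48. Subtracting local background left 2.40 and 0.70 for Lyz2 and Lyz1 in PDGFRa, and 1.92 and 0.91 in satellite cells, and turned Lyz1 in CD31_CD45 to -0.41. The PDGFRa and CD31_CD45 age pairs each lie within 1 scanner set, while the satellite pair spans both.

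Lgals3 was the remaining gene with an age difference of that size. Its aged over young difference was 2.50 in satellite cells (9.44-fold in intensity, rank 6), 0.64 in PDGFRa and 0.88 in CD31_CD45. It was higher in aged cells in all 3 pairs, and each value lay at or beyond the upper end of the central range of its population. With local background the satellite value was 0.87.

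The C1q chains were also higher on the aged array in each population, by less. C1qb differed by 0.27, 0.28 and 0.32 in PDGFRa, satellite cells and CD31_CD45, C1qa by 0.22, 0.32 and 0.12, and C1qc by 0.24, 0.24 and 0.69. C1qa in CD31_CD45 turned to -0.26 with local background, and the other C1q values kept their sign under the 7 other background, scaling and probe settings. In CD31_CD45 the C1qc value was the only one of these outside the central range. In satellite cells C1qa went from 3.7 to 13.3, a linear ratio of 3.59 at an intensity below the array median.

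The others showed smaller differences of mixed sign. Retnla differed by -0.04, 0.22 and -0.32 in PDGFRa, satellite cells and CD31_CD45, Mrc1 by 0.06, 0.08 and -0.27, and Csf1r by 0.08, 0.01 and -0.06. In satellite cells the linear ratios of Retnla and Mrc1 were 2.10 and 1.95, at intensities below the array median, where the offset compresses the log2 difference. Cd68 differed by -0.34, 0.15 and 0.33. Some of these signs turned under another setting: Retnla in PDGFRa (0.29 with local background), Cd68 in satellite cells (-0.31 with local background), Mrc1 in satellite cells (-0.02 with median scaling), and Csf1r in PDGFRa under 3 settings.

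**Figure D3:**
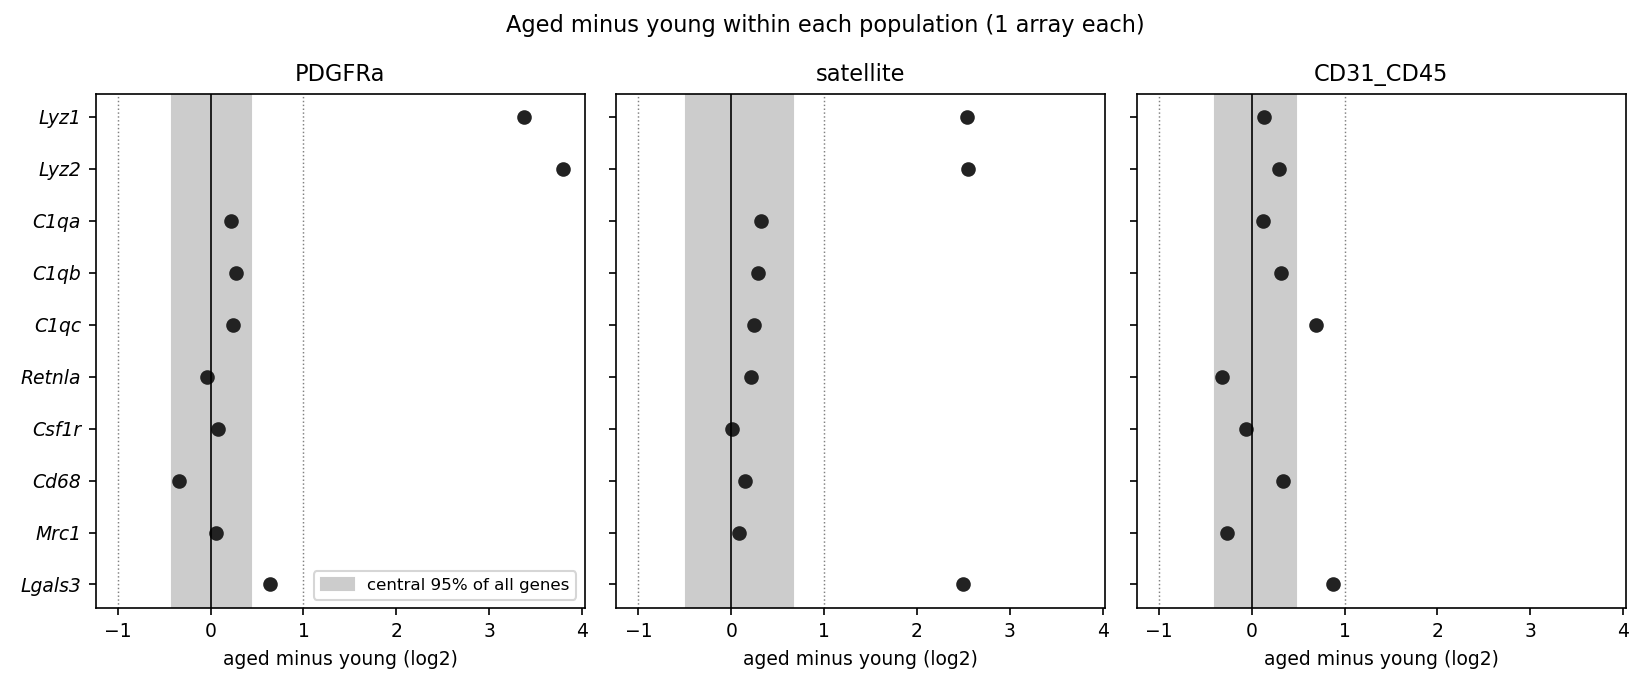
Aged minus young difference (normalised log2 intensity) of the 10 genes in each population, 1 aged array against 1 young array with no error bar; the shaded band is the central 95% of all genes above background on the brighter array. Lyz1 and Lyz2 lie far above the band in PDGFRa and satellite cells and inside it in CD31_CD45, and Lgals3 is far above it in satellite cells.

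At 2-fold or more, 2 of the 10 genes were higher in aged PDGFRa (Lyz1 and Lyz2), against 0.263% of all genes, and 3 in aged satellite cells (with Lgals3), against 1.13%. None of the 10 passed this fold in CD31_CD45, where 0.514% of genes did. At 2-fold lower there were 0 of the 10 in any pair, against 0.162%, 0.0999% and 0.0663% of all genes in PDGFRa, satellite cells and CD31_CD45. Higher at any size were 8, 10 and 7 of the 10, against 49.2%, 44% and 43.6% of all genes. For the lysozymes these counts restate how they were chosen. The age term common to the 3 populations was tested for the other 8 genes. None was called (limma), nor was any of the 18371 genes (0%), while 4 of the 8 had an unadjusted p under 0.05, against 11% of all genes. These 4 were the C1q chains and Lgals3. C1qb had 0.29 ± 0.03 (SE, limma adjusted p = 0.325) and Lgals3 1.34 ± 0.44 (SE, limma adjusted p = 0.442). The model has 2 residual degrees of freedom, and the median residual SD was 0.061.

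The genes were also read as a share of the same-age CD31_CD45 intensity. This share moves with the make-up of CD31_CD45, in which the blood cell markers given below were higher in aged cells. In PDGFRa, Lyz2 stood at 0.695% of the CD31_CD45 level in young and 10.2% in aged cells, and Lyz1 at 0.783% and 9.98%. Over the same pair C1qa had 0.743% and 0.975%, C1qb 0.955% and 1.10%, C1qc 1.36% and 1.22%, and Retnla 0.624% and 0.664%. In young PDGFRa the lysozymes, C1q chains and Retnla thus lay between 0.624% and 1.36%, and in aged PDGFRa the C1q chains and Retnla lay between 0.664% and 1.22%. Mrc1 had 1.74% and 2.69%, Cd68 11.2% and 5.61%, Csf1r 20.7% and 22.3%, and Lgals3 29.2% and 26.7%.

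In satellite cells, Lyz2 stood at 0.930% in young and 5.18% in aged cells, and Lyz1 at 0.771% and 5.19%. Lgals3 had 2.43% and 14.2%. C1qa had 0.155% and 0.545%, C1qb 0.208% and 0.448%, C1qc 0.536% and 0.697%, and Retnla 0.0917% and 0.244%. Mrc1 had 0.892% and 2.23%, Cd68 5.78% and 5.59%, and Csf1r 17.9% and 19.8%. Here 7 of the 8 genes other than lysozymes had a higher share in aged cells, and Lgals3 alone of them had a share more than 5 times the young one. These shares were not computed over all genes, so the count of 7 has no background to be read against. The C1q chains, Retnla and Mrc1 lay below the array median in satellite cells at both ages.

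**Figure D4:**
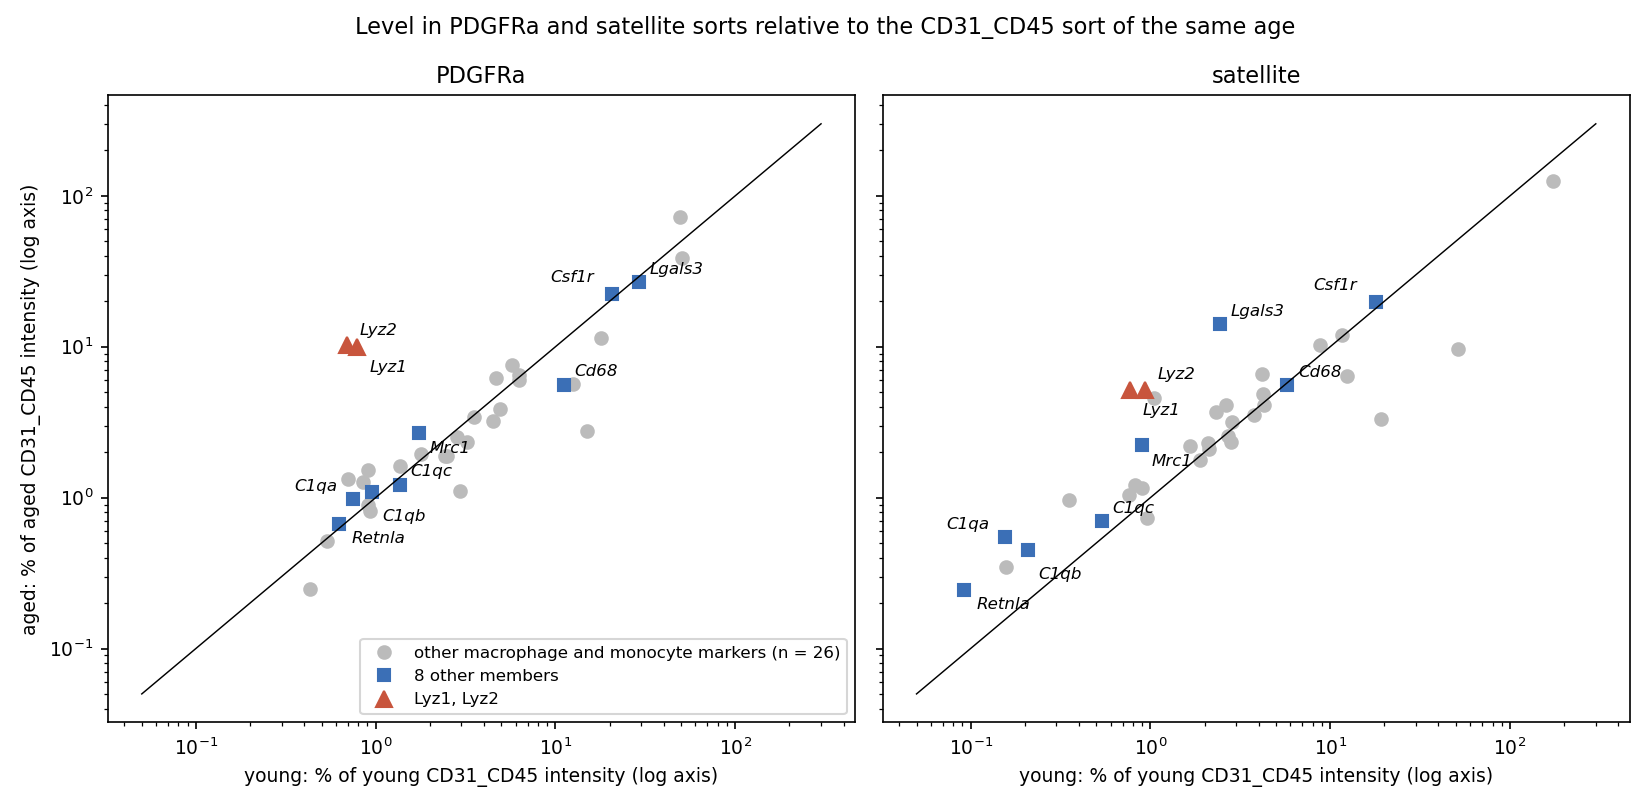
Intensity in PDGFRa (left) and satellite cells (right) as a percentage of the CD31_CD45 intensity at the same age, young on the x axis and aged on the y axis (log10 axes), 1 array per point and axis; the line marks equal shares. Lyz1 and Lyz2 lie well above the line in both panels and Lgals3 in the satellite panel, while the grey points, 26 other macrophage markers above background on both arrays of a panel, mostly gather around the line; the grey point beside the lysozymes in the satellite panel is Cd14.

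Other macrophage and monocyte markers were mostly higher in CD31_CD45 too. Of 31 measured, 25 were called higher in CD31_CD45 than in PDGFRa and 26 higher than in satellite cells, against 5.41% and 6.56% of all genes. Among them were Fcer1g, an Fc receptor chain (5.13 and 5.39), Ctss, a lysosomal protease (5.19 and 5.35), and the chemokine Pf4 (5.05 and 5.25). The median differences of the 31 were 2.06 and 2.40, and 0 were called lower, against 4.7% and 5.12% of all genes. Between ages, 16 of 28 above background on the brighter array were higher in aged PDGFRa, 20 of 31 in aged satellite cells and 20 of 31 in aged CD31_CD45, against 49.2%, 44% and 43.6% of all genes. With median scaling 7 of 31 were higher in aged satellite cells, and with local background 12 of 28 in aged PDGFRa. On the normalised scale 0 of them were 2-fold higher or lower in any population. The count of 2-fold higher ones depended on the setting: log2(value + 1) gave 1 in PDGFRa, 6 in satellite cells and 2 in CD31_CD45, local background gave 4 in CD31_CD45, and an offset of 10 gave 1 each in satellite cells and CD31_CD45. In PDGFRa the median share of the CD31_CD45 level was 2.84% in young and 1.95% in aged cells, and the largest aged over young ratio of shares was 1.90, for Pf4. In satellite cells the medians were 2.30% and 2.33%, and the largest ratio was 4.36, for Cd14, the lipopolysaccharide co-receptor, which went from 9.7 to 36.8. That share of Cd14 lay close to the shares of Lyz1 and Lyz2 in aged satellite cells.

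The summed intensity of these 31 markers was 9505 in young and 12198.9 in aged PDGFRa, 709.5 and 898.9 in satellite cells, and 30690.7 and 29109.8 in CD31_CD45. Ly6c2, a surface protein of monocytes and of endothelial and stromal cells, made up most of it, with 9178.7 and 11899.5 in PDGFRa. Without Ly6c2 the sums were 326.3 and 299.4 in PDGFRa, 282.6 and 293.2 in satellite cells, and 12158.3 and 12605.4 in CD31_CD45. The scavenger receptor gene Msr1 was brighter in satellite cells (100.8 and 56.0) than in CD31_CD45 (58.4 and 44.9), and without it as well the satellite sums were 181.8 and 237.2 and the PDGFRa sums 296.7 and 282.1. Some markers were higher on both aged arrays. Fcer1g went from 28.0 to 38.3 in PDGFRa and from 18.4 to 27.4 in satellite cells. Ctss went from 6.5 to 9.4 and from 1.9 to 6.3, and Pf4 from 12.4 to 18.1 and from 6.2 to 13.1. Others had a lower intensity on both aged arrays, among them Folr2, Lyve1, Timd4, Msr1 and Aif1. Folr2 went from 41.9 to 25.1 in PDGFRa and from 27.7 to 25.3 in satellite cells. On the normalised log2 scale Folr2 differed between ages by -0.27 in PDGFRa and -0.71 in CD31_CD45. Of the defining markers, Cd14 had 53.1 and 60.9 in PDGFRa, with its satellite values given above. Adgre1 (F4/80) did not reach background in PDGFRa at either age and had 1.4 and 2.6 in satellite cells, against 49.4 and 81.5 in CD31_CD45. Itgam (CD11b) had 1.7 in young PDGFRa, was below background in aged PDGFRa and young satellite cells, and had 1.0 in aged satellite cells. The signalling adaptor Tyrobp had 14.3 and 14.9 in PDGFRa and 12.8 and 12.2 in satellite cells, against 1688.2 and 1170.6 in CD31_CD45. Fcgr1, Cx3cr1 and Cd163 had at most 3.3 in PDGFRa and satellite cells. Mertk, a receptor for dying cells, had 35.8 and 24.1 in PDGFRa and 17.6 and 21.4 in satellite cells, and Aif1 had 28.1 and 19.9, and 27.6 and 22.7. The part of macrophages in the lysozyme difference was not tested.

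Markers of all blood cells and of neutrophils were read in the same way, since neutrophils also make Lyz2. The 13 pan-hematopoietic markers summed to 102.7 and 82.1 in young and aged PDGFRa, 51.7 and 80.1 in satellite cells, and 4324.8 and 5769.6 in CD31_CD45. All 13 were called higher in CD31_CD45 than in PDGFRa and than in satellite cells, against 5.41% and 6.56% of all genes. The median share of the 13 in PDGFRa was 1.86% of the CD31_CD45 level in young and 0.844% in aged cells. In satellite cells it was 1.07% and 1.27%. The reference itself differed with age: 13 of 13 of these markers were higher in aged than in young CD31_CD45, against 43.6% of all genes, with a median of 0.54 (10 of 13 with local background). The 12 neutrophil markers summed to 111.2 and 102 in PDGFRa and to 87.8 and 244.7 in satellite cells, against 2609 and 4420.6 in CD31_CD45.

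In aged satellite cells several neutrophil genes were higher, as the lysozymes were, but by less on the normalised scale, where the offset compresses dim values. As a share of the CD31_CD45 level, the median of 11 of these markers was 4.24% in young and 8.16% in aged satellite cells. The largest aged over young ratio of shares was 32.5, for S100a9. Of 9 markers above background on both satellite arrays, 2 had a ratio of at least 5, with no such count made over all genes. In PDGFRa the median shares were 6.84% and 4.15%. S100a9, a calcium-binding protein of neutrophils and monocytes, had 1.3 in young and 70.7 in aged satellite cells, and 1386.7 and 2323.1 in CD31_CD45. Its partner S100a8 had 23.8 and 55.9, the antimicrobial peptide gene Camp 2.4 and 22.4, and the granule gene Ngp 3.0 and 10.8. Elane had 5.2 and 5.3, and Retnlg was lower on the aged array, with 27.4 and 23.5. Of the 12 markers 11 were higher in aged satellite cells, 1 at 2-fold or more on the normalised scale (S100a9, 1.57), against 44% and 1.13% of all genes. With median scaling 7 of 12 were higher. The count at 2-fold was 0 with local background, 4 with an offset of 10 and 8 with log2(value + 1). In PDGFRa, S100a9 had 1.2 and 1.3, S100a8 15.8 and 16.3, Camp 4.1 and 3.0, and Ngp 2.0 and 2.4, so in PDGFRa these genes stayed low at both ages. The part of these cells in the satellite difference was not tested.

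Stromal and glial genes were looked at after the values had been seen. In aged satellite cells 12 of 12 mesenchymal progenitor markers were higher than in young ones, 6 of them at least 2-fold, with a median of 0.92, against 44% and 1.13% of all genes (7 of 12 higher and 3 at 2-fold with local background). The matrix proteins Mfap5 (2.37), Dcn (2.34) and Lum (1.80) led them, and Pdgfra went from 7.6 to 60.6. In aged PDGFRa the glial transcription factor Sox10 was 1.65 higher, and the summed intensity of Sox10, Mbp and S100b was 489.5 against 251.6 in young cells; 1 of the 3 stayed higher with local background. PDGFRa was the brighter source of Lgals3 among the non-hematopoietic sorts, with 453.1 and 671.1. The part of PDGFRa cells in the aged satellite values was not tested.

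Relatives of the 10 genes showed how far each pattern extended in its family. Of 8 further lysozyme and alpha-lactalbumin genes, Lyg1 was below background on all arrays, and the other 7 had values of at most 17.9 (Lyg2, young satellite cells), with 0 called between any populations. Within the resistin family, Retnlg, a neutrophil product, rose in CD31_CD45 against PDGFRa by 2.65 ± 0.24 (SE, limma adjusted p = 0.00777) with 213.3 and 356.9, while Retn and Retnlb had at most 5.2 on any array. In the mannose receptor family, Mrc2, the collagen receptor Endo180, fell in CD31_CD45 against PDGFRa by 1.31 ± 0.09 (SE, limma adjusted p = 0.00536), opposite to Mrc1. It had 65.3 and 41.5 in PDGFRa and 0.8 and 1.2 in CD31_CD45.

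Genes that act with C1q did not follow its chains as a group. Of 9 partners and receptors measured, 4 were called lower and 1 higher in CD31_CD45 than in PDGFRa, and likewise against satellite cells. Of all genes, 4.7% were lower and 5.41% higher than in PDGFRa, and 5.12% and 6.56% than in satellite cells. C1ra, a copy of the protease that C1q activates, had 3289.1 and 3677.7 in PDGFRa against 109.9 and 149.5 in CD31_CD45, a difference of -4.44 ± 0.42 (SE, limma adjusted p = 0.00855). Serping1, the C1 inhibitor, had 13198.4 and 11950.4 against 448.7 and 682.8 (-4.61 ± 0.20 SE, limma adjusted p = 0.00243). Cd93, an endothelial receptor once described as binding C1q, was the one called higher, with 3228.1 and 2124.7 in CD31_CD45 against at most 45.6. Megf10, an engulfment receptor, and C1qbp were brightest in satellite cells, with 1016.0 and 814.2, and 1759.9 and 1379.9. C1ra went from 185.0 to 588.1 (1.60 on the log2 scale) and the complement protease gene C2 from 8.0 to 67.4 (1.27) between young and aged satellite cells.

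Among 18 secreted proteins with a C1q domain, 2 were called higher and 7 lower in CD31_CD45 than in PDGFRa, against 5.41% and 4.7% of all genes. The median difference of the 18 was -0.50. C1qtnf9, an adipokine relative, and Mmrn2, an endothelial matrix protein, were higher by 5.57 and 5.27. C1qtnf3 fell by 3.99 ± 0.58 (SE, limma adjusted p = 0.0209), and it went from 319.5 to 1363.4 between young and aged PDGFRa, the one gene of this list that was 2-fold higher there.

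Along the Csf1r axis, the ligands were not limited to one sort. Csf1 had 401.8 and 488.7 in PDGFRa, 215.9 and 240.3 in satellite cells, and 280.3 and 312.0 in CD31_CD45. Il34, the other ligand, had 83.0 and 70.8 in PDGFRa, 91.4 and 87.1 in CD31_CD45, and 15.2 and 72.9 in young and aged satellite cells (1.13). Of 15 genes of this axis and of myeloid transcription factors, 3 were called higher in CD31_CD45 than in PDGFRa, against 5.41% of all genes. The 3 were Irf8 (2.35), Spi1 (2.10), which encodes the PU.1 factor named above, and the receptor chain Csf2ra (1.32). Spi1 had 124.7 and 204.5 in CD31_CD45, 11.3 and 9.8 in PDGFRa, and 15.9 and 13.4 in satellite cells, with aged values below young ones in both of the latter. Against satellite cells 3 were called higher and 2 lower, where 6.56% and 5.12% of all genes were. The lower ones were Cebpb and Runx1.

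Of 14 genes tied to alternative activation, 6 were called higher in CD31_CD45 than in PDGFRa and 7 higher than in satellite cells. The shares of all genes were 5.41% and 6.56%. The lectin Clec10a (3.57), the chitinase-like Chil3 (3.48) and the transglutaminase Tgm2 (3.36), which endothelial cells also express, led against PDGFRa. Chil3 went from 240.0 to 540.4 between young and aged CD31_CD45 (1.15), where Retnla was lower on the aged array.

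Lysosomal genes were not higher as a group in CD31_CD45 than in PDGFRa, unlike Cd68. Of 21 measured, 0 were called higher and 4 lower than in PDGFRa, against 5.41% and 4.7% of all genes, with a median of -0.10. Against satellite cells 8 were called higher and 1 lower, where 6.56% and 5.12% of all genes were. The protease Ctsd had 3671.9 and 5813.3 in CD31_CD45, 3126.6 and 3613.1 in PDGFRa, and 1609.7 and 1995.4 in satellite cells. Gpnmb, a membrane glycoprotein of phagocytes and many other cells, fell in CD31_CD45 against PDGFRa by 2.06 ± 0.39 (SE, limma adjusted p = 0.0366). It was higher on the aged array in all 3 populations, as Lgals3 was. The values were 107.4 and 507.2 in satellite cells (2.02), 64.1 and 225.9 in CD31_CD45 (1.42), and 561.5 and 784.2 in PDGFRa (0.56).

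Of 9 galectins and galectin-linked genes besides Lgals3, 0 were called higher in CD31_CD45 than in PDGFRa, 1 was lower (Lgals1, by 1.99 ± 0.13 SE, limma adjusted p = 0.00472), and 3 were higher than in satellite cells. Of all genes, 5.41% were higher and 4.7% lower than in PDGFRa, and 6.56% higher than in satellite cells. Lgals3bp, which encodes a galectin-3 binding protein, had 48.3 and 188.4 in young and aged satellite cells (1.51), the one gene of this list with a 2-fold age difference there.

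The nearest profiles over the 6 arrays, among 3215 genes, were listed for Lyz2 and for the mean of the 8 other genes. Apart from Lyz1, the genes closest to Lyz2 by the root mean square difference of centred log2 profiles were Ctla2b (0.89), Ccl9 (1.04), Cd74 (1.14), Rgcc (1.16) and H2-Eb1 (1.18), each several times as far away as Lyz1 at 0.14. Ctla2b had 3070 and 1977.2 in CD31_CD45, 39.9 and 370.1 in PDGFRa, and 67.9 and 199 in satellite cells. Ccl9, a chemokine, had 1546.7 and 1300.3 in CD31_CD45, 16.9 and 95.6 in PDGFRa, and 2.2 and 16.2 in satellite cells. The genes closest to the mean profile of the 8 others were Coro1a (0.27), Bcl2a1c (0.30), Fcgr3 (0.30), Tgm2 (0.30) and Cd83 (0.31), and Lyz2 lay 1.33 from that mean profile. The likeness is a description over 6 arrays that share 1 array per population and age. Lyz2 was chosen for its aged over young rise on these arrays. Its neighbours and its distance from the 8 others therefore partly restate that choice. A mean of 8 genes is also smoother than 1 gene, so the distances from both profiles are not comparable.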

How the data were processed

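Per the labels, RNA of pooled sorted cells was amplified, labelled with Cy5 and hybridised to 6 one-colour arrays. Per the file headers, spot intensity is the median at 635 nm merged from 3 gains. The authors' deposited table gives linear intensity, scaled to a median of 25 per array; rebuilding it from the scanner files as spot median less the 5% trimmed mean of 2736 blank spots left a largest difference of 0.0559. Empty cells were read as not above background. Here spot medians were corrected with normexp (blank-spot background, offset 50), set on the log2 scale and quantile normalised; the offset compresses folds of dim genes. Of 23473 probes 20690 had 1 symbol; 18371 genes above background on at least 2 arrays were tested. limma 3.58.1 in R 4.3.3 fitted cell type and age to all 6 arrays (2 residual degrees of freedom, prior 1.50), two-sided, Benjamini-Hochberg over all genes, called at adjusted p under 0.05 and 2-fold. Nothing in the labels says how many animals entered a pool. With 1 array per population and age, p-values and SEs measure only how far the age differences varied between populations, not the spread of replicates. The fit was tested on simulated data. The members, the lists and the naming rule (defining markers, the 3 largest differences of a list per comparison, the 5 nearest profiles) were chosen with earlier results of these data known; the mesenchymal and glial lists were added after the values had been seen. Sequences came from RefSeq promoters. In alternatives, background, offset, scaling, filter, probe choice, scanner set and single arrays were varied.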

Additional observations from a re-analysis of the deposited data

Results flagged for a closer look

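In 4 genes the aged minus young difference (log2) pointed opposite ways in some populations, on 1 array a side, and the difference between populations was not tested. Opposite signs were not counted over all genes, so this count of 4 has no background to be read against. Each age difference of these genes lay inside the central range of its population. Under another setting the sign turned for Retnla and Csf1r in PDGFRa and for Cd68 and Mrc1 in satellite cells. For Cd68, PDGFRa (-0.34) and CD31_CD45 (0.33) lay 0.68 apart, and PDGFRa and satellite cells 0.49 apart. For Retnla, satellite cells (0.22) and CD31_CD45 (-0.32) lay 0.54 apart, and PDGFRa and satellite cells 0.26. For Mrc1, CD31_CD45 (-0.27) lay 0.35 from satellite cells and 0.33 from PDGFRa. For Csf1r the gaps were 0.14 between PDGFRa and CD31_CD45 and 0.073 between satellite cells and CD31_CD45.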

How the results depend on the processing

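No result changed direction while called. With each spot's local background, genes called numbered 289, 342 and 68 for CD31_CD45 against PDGFRa, CD31_CD45 against satellite and satellite against PDGFRa, beside 1858, 2146 and 1339 as reported. They numbered 2947, 3382 and 2213 with an offset of 10, 3790, 4429 and 2981 with log2(value + 1) of the deposited table, 3273 and 2154 for the comparisons with satellite cells with log2(value + 10), and 835 for the first with the scanner set as a block. Leaving out single arrays gave 1131 to 1816, 1735 to 2125 and 0 to 1311 genes, 0 without either PDGFRa array. Of the 10 genes, 7 to 9 were then called against PDGFRa, and 5 with the scanner block. Between satellite cells and PDGFRa, 0 were called as reported, 1 without background correction, 2 with an offset of 10 or log2(value + 10), 3 with log2(value + 1), 1 with the scanner block and 0 to 1 with single arrays left out. Of the 10, 1 was at least 2-fold higher in aged PDGFRa with local background (2 as reported); in aged satellite cells 1 was with local background and 5 with log2(value + 1) (3 as reported). The cause was not tested. The deposited table moved the median of all genes in the PDGFRa age pair to -0.10 and -0.17 with pseudocounts of 10 and 1. Of 810 comparisons of single genes with an alternative, 703 kept their call or stayed within the spread. No paired analysis was possible because the labels give no replicate numbers and each population and age has 1 array. Dim genes, such as Mrc1 and the C1q chains outside CD31_CD45, are limited by signal over background.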
